A study of Homo sapiens with 6 samples.

Results

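The DNA replication machinery was followed through 45 genes, picked by name from the 58735 genes of an RNA-seq table. The cells were U937, an established human myeloid line. The set holds the proteins that mark origins, load and start the replicative helicase, copy both strands, hold the polymerases on DNA and supply or clean the deoxynucleotides. The tested cells were labelled shENO1 (3 libraries), taken to mean that a short hairpin RNA targets ENO1, which encodes the glycolytic enzyme enolase 1, and the others were wild-type U937 (3 libraries). The labels give no clone, hairpin sequence, time after transduction or control hairpin, so an effect of carrying any hairpin and an effect of losing ENO1 cannot be told apart. They also do not say that replicates came from separate cultures, so the p-values reflect only how these 6 libraries scatter, and that scatter may be technical.

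Levels are in FPKM, that is, fragments divided by the length of the gene model and by library size. The reads per gene could be recovered from the table, and the libraries held 14216739 to 17499636 reads in genes. ENO1, the target, had 91.5, 82.7 and 111 FPKM in shENO1 libraries and 526, 545 and 561 FPKM in wild-type libraries (log2 fold change -2.51 ± 0.14 SE, adjusted p = 0.00129). Among the myeloid markers SPI1, LYZ, AZU1, CD4, CD33 and PTPRC were present, whereas CD68 and MPO were under 1 FPKM in every library. CSF1R, the receptor of a monocyte growth factor, rose, with 2.71, 1.80 and 2.33 FPKM in shENO1 libraries and 0.849, 1.01 and 0.967 FPKM in wild-type libraries (log2 fold change 0.75, adjusted p = 0.0245). LYZ (lysozyme) had 533, 513 and 855 FPKM in shENO1 libraries and 400, 441 and 311 FPKM in wild-type libraries, with no overlap, and did not pass the test (adjusted p = 0.107). The part of these markers in the results on replication genes was not tested. CD3E, MS4A1 and HBB were listed at 0 in all 6 libraries, and EPCAM, KRT18 and ALB were at or near 0. Of the other markers of foreign cell types, COL1A1 was low and did not pass the test, and PECAM1 rose, with 20.3 ± 0.965 FPKM in shENO1 cells and 15 ± 1.57 FPKM in wild-type cells (SD, n = 3 each, adjusted p = 0.0409). Replicate 3 of each group stood apart from its fellows: on the second principal component (27.35% of the variance) shENO1 replicate 3 lay at 34.7 and wild-type replicate 3 at -32.2. Mitochondrial genes took 6.65, 7.42 and 5.72% of the reads in the shENO1 libraries and 3.38, 3.49 and 5.19% in the wild-type libraries.

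Replication starts in G1, when the origin recognition complex (ORC) with CDC6 and CDT1 loads rings of MCM2-7 onto DNA, a step called licensing that geminin (GMNN) blocks once S phase has begun. CDC45 and the GINS complex then join MCM2-7 to form the active helicase, known as CMG. Polymerase alpha with primase lays the primers, polymerases epsilon and delta extend them, PCNA is the sliding clamp that RFC loads, and RPA coats the exposed strands. Many of these genes are transcribed under the control of E2F factors in dividing cells.

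All 45 genes averaged 1 FPKM or more over the 6 libraries, the filter used, and were tested with limma together with the other expressed genes. In shENO1 cells 15 of the 45 rose at an adjusted p under 0.05 and 0 fell, by limma. Across all 12809 genes tested, 7.86% rose and 6.46% fell. At an unadjusted p under 0.05 the counts were 23 higher and 2 lower, where 16.3% of all tested genes were higher and 15.4% lower. With limma-voom on the recovered reads they were 19 higher and 1 lower, where 10.9% of all tested genes were higher and 7.25% lower. The median log2 fold change was 0.32 over the 45 genes and -0.02 over all genes tested. In 28 of the 45 the 3 shENO1 libraries all lay above the 3 wild-type libraries, a pattern seen in 19.6% of all tested genes. In 2 of them, ORC4 and GMNN, all shENO1 libraries lay below, against 17.9% of all tested genes.

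The rises were moderate. The ratio of mean FPKM in shENO1 cells over wild-type cells ran from 1.29 for RPA1 to 2.12 for GINS3 among the 15, with adjusted p of 0.00771 to 0.0482. A further 13 genes whose groups did not overlap missed the threshold, with ratios of 1.13 to 1.48. The genes that rose were ORC5, CDC6, MCM2, MCM3, MCM6, CDC45, GINS1, GINS3, GINS4, POLA1, PRIM1, PRIM2, PCNA, RPA1 and UNG.

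The number of calls depended on single libraries. POLA1 alone stayed past the threshold without wild-type replicate 1, POLA1 and UNG did so without wild-type replicate 2, and MCM6, POLA1 and UNG without shENO1 replicate 1. Without shENO1 replicate 2, 8 of the 15 calls were kept, without shENO1 replicate 3, 10, and without wild-type replicate 3, 11. The share of all tested genes called higher was 2.25, 5.32 and 5.71% without shENO1 replicates 1, 2 and 3, and 1.15, 1.67 and 7.14% without wild-type replicates 1, 2 and 3. Leaving out both replicates 3 gave 17 higher members, 13 of them from the 15, where 12.9% of all tested genes were higher, and 1 lower member, GMNN, where 15.9% were lower. Values were also scaled to the summed FPKM of nuclear-encoded genes only. Then 22 of the 45 were higher, among them all 15, where 10.9% of all tested genes were higher. None of the 15 changed sign under any of these settings.

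**Figure D1:**
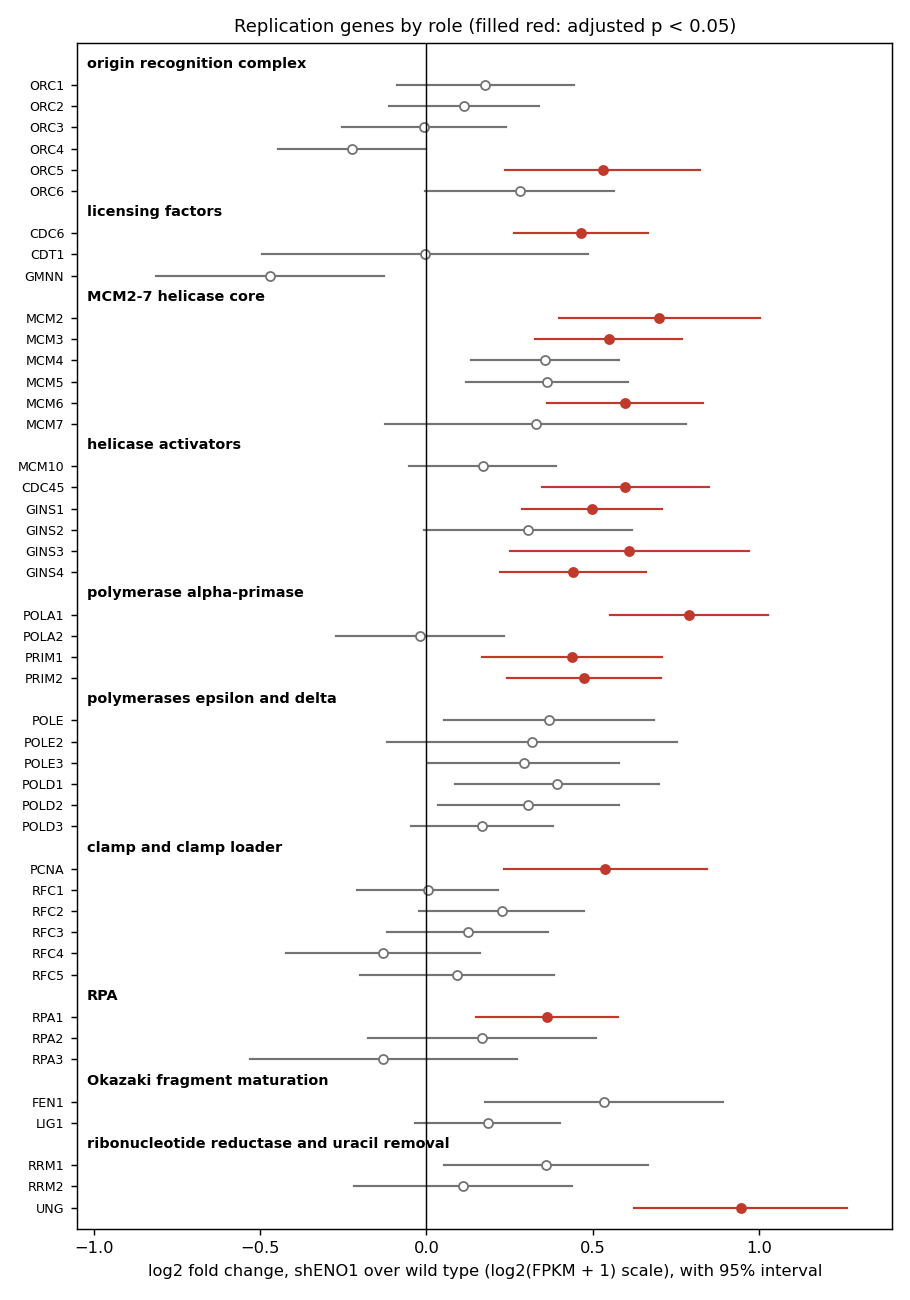
Log2 fold change of each of the 45 replication genes, shENO1 over wild type on the log2(FPKM + 1) scale, with 95% confidence intervals, grouped by role. The 15 genes past the threshold all lie right of 0, with UNG and POLA1 farthest, and GMNN lies farthest left of 0.

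Promoters were read because the E2F connection makes their sequence part of what these genes share. RefSeq promoter windows on GRCh38.p14, covering 250 bases before to 50 after the gene start, were found for 39 of the 45 genes. E2F-type matches were searched as TTTCCCGC, TTTGGCGC, TTTCGCGC and TTTGCCGC on both strands. Stretches such as those of MCM2 and MCM6 match a motif on each strand and count as 2 overlapping matches. At least 1 match lay in 17 of the 39 windows (43.6%), in 908 of all 27305 windows (3.33%) and in 480 of the 8317 windows of tested genes (5.77%). The members with a match and the largest fold changes among those that rose are shown, with the matched bases in capitals. POLA1 is from chrX:24693709-24693828 (plus strand), MCM2 from chr3:127598321-127598440 (plus), GINS3 from chr16:58392381-58392500 (plus) and MCM6 from chr2:135876482-135876635 (minus).
POLA1: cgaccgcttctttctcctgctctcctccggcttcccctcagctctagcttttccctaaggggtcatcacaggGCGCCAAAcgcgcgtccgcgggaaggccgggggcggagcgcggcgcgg
MCM2: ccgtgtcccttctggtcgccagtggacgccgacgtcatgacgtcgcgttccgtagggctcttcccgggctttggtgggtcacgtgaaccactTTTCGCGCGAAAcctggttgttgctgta
GINS3: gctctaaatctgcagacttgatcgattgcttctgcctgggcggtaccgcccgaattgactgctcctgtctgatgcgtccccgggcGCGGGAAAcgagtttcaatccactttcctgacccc
MCM6: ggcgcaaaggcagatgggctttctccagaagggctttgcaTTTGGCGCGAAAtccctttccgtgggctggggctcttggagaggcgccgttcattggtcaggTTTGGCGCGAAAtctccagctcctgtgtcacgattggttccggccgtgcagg

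The match in POLA1 began 137 bases before the gene start and that in GINS3 5 bases before it, while in MCM2 the matches began 2 and 6 bases after it. MCM6 carried the stretch TTTGGCGCGAAA at 2 places, each with a match to TTTGGCGC and, on the other strand, to TTTCGCGC, and these matches that began 152, 148, 90 and 86 bases before its start. The window of GINS3 lies 97391 bases inside the table's gene model, whose annotated start is far upstream. Of the 17 genes with a match 8 rose, with a median log2 fold change of 0.37 over the 17. Of the 22 genes with a window but no match 6 rose, with a median of 0.29. Over all tested genes 7.86% rose, and the difference between genes with and without a match was not tested. CDT1, ORC3, POLA2 and RFC3, none of which passed the test, also held a match and had log2 fold changes of -0.00, -0.01, -0.02 and 0.12. Among other motifs, CCAAT lay in 59.0% of the members' windows and 36.9% of those of tested genes, GGGCGG in 71.8 and 71.3%, CACGTG in 12.8 and 10.7%, and TTTGAA in 2.56 and 9.49%. A match is a run of letters and not a shown binding site.

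Of the 6 ORC subunits, which together mark origins, ORC5 rose and the others did not pass the test. Among all genes tested, 7.86% rose and 6.46% fell. ORC5 had 3.62, 4.28 and 3.30 FPKM in shENO1 libraries, against 2.17, 2.58 and 2.07 FPKM in wild-type libraries. All 3 shENO1 values lay above all 3 wild-type values. The log2 fold change was 0.53 ± 0.12 (SE), with an adjusted p of 0.0358. Its call was kept only without shENO1 replicate 3, and with 1 of the other libraries left out the adjusted p reached 0.127. ORC6, the smallest and most loosely held subunit, whose mRNA had the highest mean of the group over the 6 libraries, had 35.6, 38.4 and 43.6 FPKM in shENO1 libraries and 33.8, 34.1 and 28.5 FPKM in wild-type libraries. These groups did not overlap but differed with an adjusted p of only 0.164. ORC1, the subunit whose amount is known to follow the human cell cycle, averaged 36.8 ± 1.98 FPKM in shENO1 cells and 32.6 ± 3.83 FPKM in wild-type cells (SD, n = 3 each; log2 fold change 0.18, 95% interval -0.09 to 0.44). ORC4 had 3.52, 3.97 and 4.02 FPKM in shENO1 libraries and 4.77, 4.34 and 4.83 FPKM in wild-type libraries, lower in each (log2 fold change -0.22, adjusted p = 0.156). ORC2 and ORC3 differed by 0.11 and -0.01 on the log2 scale. ORC levels were far from equal per length: the highest subunit was 10.5 times the lowest in shENO1 cells (ORC6 over ORC5) and 14.3 times in wild-type cells (ORC1 over ORC5).

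Of the 3 licensing factors 1 rose and the others did not pass the test, where 7.86% of all tested genes rose. CDC6, the ATPase that joins ORC to recruit MCM2-7, had 14.4, 15.2 and 15.4 FPKM in shENO1 libraries, against 11.3, 10.4 and 10.1 FPKM in wild-type libraries, a log2 fold change of 0.46 ± 0.08 (SE; adjusted p = 0.0188). The groups were well apart, although the call was lost without shENO1 replicate 1, wild-type replicate 1 or wild-type replicate 2, where the adjusted p reached 0.0929. CDT1, the partner that brings MCM2-7 and is destroyed in S phase, had 70.4, 59.6 and 51.5 FPKM in shENO1 libraries and 53.3, 50.9 and 80.2 FPKM in wild-type libraries. The groups overlapped and each was wide, and the difference was -0.00 on the log2 scale with a 95% interval of -0.49 to 0.48. Without wild-type replicate 3 it was 0.20.

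GMNN, the inhibitor of CDT1 that accumulates from S phase on, had the lowest fold change of the 45. It had 19.3, 20.0 and 25.0 FPKM in shENO1 libraries, against 32.5, 32.2 and 25.5 FPKM in wild-type libraries. Every shENO1 value was under every wild-type value, but replicates 3 of the groups nearly met. The log2 fold change was -0.47 ± 0.14 (SE), with an adjusted p of 0.073, so GMNN was not called. It passed the threshold without shENO1 replicate 3 (-0.58, adjusted p = 0.0463), without wild-type replicate 3 (-0.58, adjusted p = 0.0479) and with limma-voom (adjusted p = 0.0475). It is the only one of the 45 to be called lower under any of the settings run.

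Within a library, scaling drops out of the ratio between genes. The summed FPKM of MCM2-7 was 27.0, 24.9 and 24.2 times that of GMNN in shENO1 libraries and 11.9, 12.3 and 14.7 times in wild-type libraries. CDC6 over GMNN was 0.749, 0.759 and 0.617 in shENO1 libraries and 0.348, 0.324 and 0.396 in wild-type libraries. Both ratios were higher in each shENO1 library than in any wild-type library. This order follows from the levels themselves, since CDC6 and the MCM2-7 sum were higher and GMNN lower in each shENO1 library. CDT1 over GMNN was 3.65, 2.98 and 2.06 in shENO1 libraries and 1.64, 1.58 and 3.15 in wild-type libraries, with overlap. With 3 libraries against 3, the smallest 2-sided p of an exact permutation test is 0.1, so these ratios are given as descriptions.

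**Figure D2:**
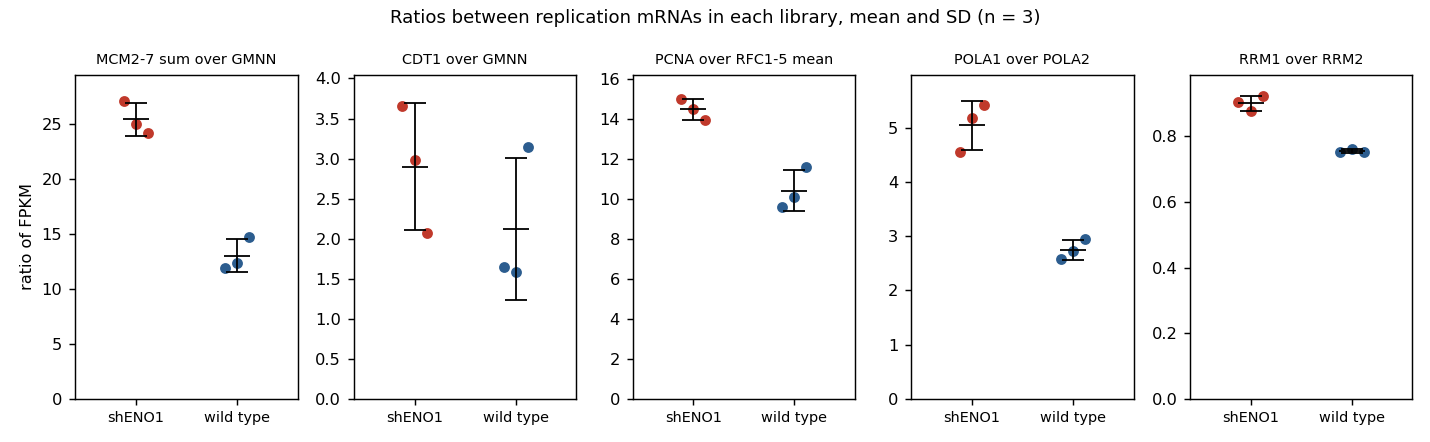
Ratios of FPKM between replication genes in each library; points are libraries and bars the mean and SD of 3. The sum of MCM2-7 over GMNN, PCNA over the mean of RFC1-5, POLA1 over POLA2 and RRM1 over RRM2 do not overlap between the groups, while CDT1 over GMNN does.

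The MCM2-7 ring, the motor of the helicase, is made of 1 copy of each of 6 related subunits. All 6 had a log2 fold change above 0 in shENO1 cells, with a median of 0.46, and MCM2, MCM3 and MCM6 rose. Over all tested genes the median was -0.02 and 7.86% rose. MCM2 had 46.7, 42.6 and 56.1 FPKM in shENO1 libraries, against 30.7, 30.1 and 27.0 FPKM in wild-type libraries (log2 fold change 0.70 ± 0.13 SE, adjusted p = 0.0183). MCM3 had 113, 114 and 122 FPKM in shENO1 libraries, against 79.1, 80.8 and 77.7 FPKM in wild-type libraries (0.55 ± 0.09, adjusted p = 0.0156). MCM6 had 118, 123 and 132 FPKM in shENO1 libraries, against 80.0, 80.0 and 85.7 FPKM in wild-type libraries (0.60 ± 0.10, adjusted p = 0.0143). In MCM3 and MCM6 the gap between the groups was wider than the range within either group, whereas the shENO1 libraries of MCM2 were more spread. The call of MCM6 was lost without wild-type replicate 1 or 2 (adjusted p up to 0.0834), and those of MCM2 and MCM3 also without shENO1 replicate 1 (up to 0.0740 and 0.0817).

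MCM4 and MCM5 lay just outside the threshold and were apart as well. MCM4 averaged 95.7 ± 5.17 FPKM in shENO1 cells and 74.5 ± 1.72 FPKM in wild-type cells (SD, n = 3 each; adjusted p = 0.0502). MCM5 averaged 37.1 ± 3.70 FPKM in shENO1 cells and 28.5 ± 0.691 FPKM in wild-type cells (adjusted p = 0.0595), and was called without shENO1 replicate 2 (adjusted p = 0.0419). MCM7, the highest of the ring by its mean over the 6 libraries, had 111, 94.5 and 152 FPKM in shENO1 libraries and 93.6, 102 and 83.7 FPKM in wild-type libraries. Its groups overlapped, and shENO1 replicate 3 was far above the other libraries (log2 fold change 0.33, 95% interval -0.12 to 0.78). An intron of MCM7 hosts MIR25, MIR93 and MIR106B, whose rows share its span. The subunits' mRNAs stayed within a narrow band of levels: the highest was 3.35 times the lowest in shENO1 cells (MCM6 over MCM5) and 3.26 times in wild-type cells (MCM7 over MCM5). Relative to the summed ORC subunits, the sum of MCM2-7 was 5.64, 4.89 and 6.02 in shENO1 libraries and 4.51, 4.72 and 4.32 in wild-type libraries, higher in each shENO1 library.

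Of the 6 factors that turn the loaded ring into a running helicase, CDC45, GINS1 to GINS4 and MCM10, 4 rose. In all 6 every shENO1 library lay above every wild-type library. Over all tested genes 7.86% rose and 19.6% had their groups apart in this way. CDC45, which clasps the open side of the ring, had 18.9, 19.5 and 22.4 FPKM in shENO1 libraries, against 13.3, 13.9 and 11.9 FPKM in wild-type libraries (log2 fold change 0.60 ± 0.10 SE, adjusted p = 0.0169). GINS1, the most abundant of the group, had 31.4, 31.9 and 31.3 FPKM in shENO1 libraries, against 20.5, 22.1 and 23.6 FPKM in wild-type libraries (0.50 ± 0.09, adjusted p = 0.0174). Its 3 shENO1 values were nearly equal. Both calls were lost without shENO1 replicate 1, wild-type replicate 1 or wild-type replicate 2, with adjusted p of up to 0.0731 for CDC45 and 0.0875 for GINS1.

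GINS3 had 1.71, 1.70 and 2.40 FPKM in shENO1 libraries, against 0.857, 0.889 and 1.0 FPKM in wild-type libraries (log2 fold change 0.61 ± 0.15, adjusted p = 0.0424). It was the least abundant of the 45, with 66 to 207 reads per library, and the added pseudocount of 1 makes its fitted change smaller than its 2.12-fold ratio of means. GINS4 had 5.31, 5.27 and 5.96 FPKM in shENO1 libraries, against 3.98, 3.85 and 3.56 FPKM in wild-type libraries (0.44 ± 0.09, adjusted p = 0.0270). Neither call survived the loss of any 1 library: the adjusted p reached 0.140 for GINS3 and 0.104 for GINS4. GINS2 averaged 11.6 ± 1.87 FPKM in shENO1 cells and 9.18 ± 0.839 FPKM in wild-type cells (adjusted p = 0.166). MCM10, a factor needed for helicase activation, averaged 8.88 ± 0.631 FPKM in shENO1 cells and 7.78 ± 0.498 FPKM in wild-type cells (adjusted p = 0.260; SD, n = 3 each). Of the 11 subunits of CMG (MCM2-7, CDC45 and GINS1-4), 7 rose, with a median log2 fold change of 0.50. The share that rose was 7.86% over all tested genes. The 4 GINS subunits form 1 complex, yet GINS1 was 16.2 times GINS3 in shENO1 cells and 24.1 times in wild-type cells per length.

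**Figure D3:**
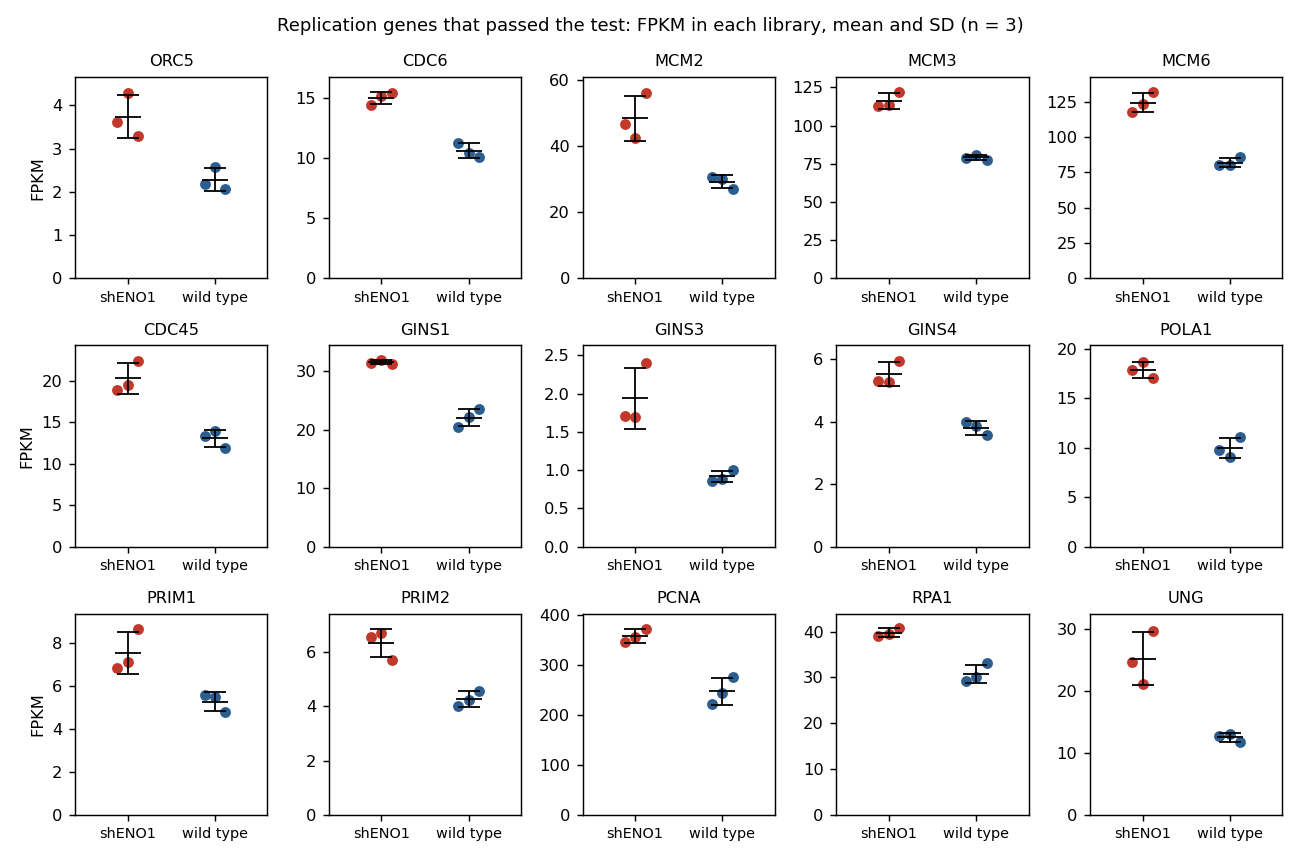
FPKM of the 15 replication genes that passed the test, in shENO1 (left) and wild-type (right) libraries; each point is a library, the wide bar the mean and the whiskers the SD (n = 3). In all 15 panels the lowest shENO1 library lies above the highest wild-type library.

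Polymerase alpha and primase form a complex of 4 subunits that makes the RNA-DNA primers. Of the 4, 3 rose, where 7.86% of all tested genes rose. POLA1, the catalytic subunit of the polymerase and the highest of the group, had 17.8, 18.7 and 17.1 FPKM in shENO1 libraries, against 9.75, 9.02 and 11 FPKM in wild-type libraries. The log2 fold change was 0.79 ± 0.10 (SE) with an adjusted p of 0.00771, the lowest of the 45. POLA1 was called with any 1 library left out, with log2 fold changes of 0.73 to 0.86. PRIM1, the catalytic subunit of primase, had 6.83, 7.13 and 8.66 FPKM in shENO1 libraries, against 5.58, 5.48 and 4.80 FPKM in wild-type libraries (0.44 ± 0.11, adjusted p = 0.0482). This was the weakest of the calls and was lost without any 1 of the 6 libraries (adjusted p up to 0.134). PRIM2, the large subunit of primase, had 6.57, 6.68 and 5.72 FPKM in shENO1 libraries, against 4.01, 4.22 and 4.58 FPKM in wild-type libraries (0.47 ± 0.10, adjusted p = 0.0258). Its call was kept without shENO1 replicate 3 or wild-type replicate 3 and lost without any of the other 4 libraries (adjusted p up to 0.107).

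POLA2, the regulatory subunit of the same complex, did not pass the test. It averaged 3.56 ± 0.387 FPKM in shENO1 cells and 3.61 ± 0.256 FPKM in wild-type cells (SD, n = 3 each), a log2 fold change of -0.02 with a 95% interval of -0.27 to 0.23. The ratio of POLA1 to POLA2 was 4.55, 5.19 and 5.42 in shENO1 libraries and 2.58, 2.72 and 2.95 in wild-type libraries, with no overlap. POLA2 shares 43662 bases with the readthrough gene model AP000944.2 on the same strand, so some of its reads may have been dropped or assigned there. PRIM1 likewise shares 9940 bases with AC117378.1. Both of those models were near 0 FPKM.

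None of the 6 subunits of the leading and lagging strand polymerases among the 45 genes passed the test. All 6 had a log2 fold change above 0 (0.17 to 0.39, median 0.31). Of the 6, 4 had an unadjusted p under 0.05 and 1, POLD1, was called with limma-voom. The shares of all tested genes higher by these measures were 16.3 and 10.9%. POLD2, an accessory subunit of polymerase delta and the highest of the group, had 56.4, 44.7 and 54.3 FPKM in shENO1 libraries and 40.3, 42.4 and 41.9 FPKM in wild-type libraries (adjusted p = 0.121). POLD1, the catalytic subunit of delta, had 54.2, 41.6 and 49.0 FPKM in shENO1 libraries and 36.5, 33.2 and 39.6 FPKM in wild-type libraries (0.39 ± 0.13, adjusted p = 0.0887). In both the shENO1 libraries were all higher but more scattered than the wild-type libraries. POLE, the catalytic subunit of epsilon, averaged 10.5 ± 1.17 FPKM in shENO1 cells and 7.90 ± 1.16 FPKM in wild-type cells (adjusted p = 0.111). POLE2, POLE3 and POLD3, which are accessory subunits, had log2 fold changes of 0.32, 0.29 and 0.17. The accessory subunits POLE4 and POLD4 are outside the 45 and did not pass the test either. POLE4 had a log2 fold change of 0.07 (adjusted p = 0.818). POLD4 went the other way, with 1.75 ± 0.440 FPKM in shENO1 cells and 2.81 ± 0.653 FPKM in wild-type cells (SD, log2 fold change -0.47, adjusted p = 0.143).

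PCNA, the clamp and the most abundant mRNA of the 45 per length, had 347, 356 and 373 FPKM in shENO1 libraries, against 222, 244 and 275 FPKM in wild-type libraries. It rose with a log2 fold change of 0.54 ± 0.13 (SE; adjusted p = 0.0378), a call kept without wild-type replicate 3 and lost without any other single library (adjusted p up to 0.151). Of the 5 subunits of RFC, the loader, 0 passed the test by limma, 0 had an unadjusted p under 0.05 and 0 were called with limma-voom. Their median log2 fold change was 0.09. The matching shares of all tested genes were 7.86, 16.3 and 10.9% higher and 6.46, 15.4 and 7.25% lower. RFC1, the large subunit, averaged 26.2 ± 0.752 FPKM in shENO1 cells and 26.2 ± 1.74 FPKM in wild-type cells (95% interval of the log2 fold change -0.21 to 0.22).

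RFC2 had 30.8, 30.0 and 36.6 FPKM in shENO1 libraries and 26.9, 27.7 and 28.0 FPKM in wild-type libraries, and was the only loader subunit whose groups did not overlap (95% interval -0.02 to 0.47). RFC2 was called when values were scaled to the summed FPKM of nuclear-encoded genes. RFC3, RFC4 and RFC5 had log2 fold changes of 0.12, -0.13 and 0.09, with 95% intervals of -0.12 to 0.37, -0.42 to 0.16 and -0.20 to 0.38. A rise as large as the fitted one of PCNA lay outside the intervals of all 5. PCNA's own 95% interval was 0.23 to 0.84, however, and overlapped those of RFC2, RFC3 and RFC5. The difference between clamp and loader was not tested. PCNA over the mean of the 5 loader subunits was 15, 14.5 and 14 in shENO1 libraries and 9.61, 10.1 and 11.6 in wild-type libraries. Every shENO1 library was higher. The processed copies PCNAP1, PCNAP3 and PCNAP4 were listed at 0 in all 6 libraries.

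RPA, the complex of 3 subunits that covers exposed strands, had a member that rose and others that did not pass the test. Among all genes tested, 7.86% rose and 6.46% fell. RPA1, the large DNA-binding subunit, had 39.1, 39.4 and 40.8 FPKM in shENO1 libraries, against 29.2, 30.0 and 33.1 FPKM in wild-type libraries (log2 fold change 0.36 ± 0.09 SE, adjusted p = 0.0422). The call was kept without wild-type replicate 3 and lost without any other single library (adjusted p up to 0.174). RPA2, the highest of the group, had 42.2, 44.6 and 58.5 FPKM in shENO1 libraries and 41.6, 46.2 and 40.4 FPKM in wild-type libraries. Its log2 fold change was 0.17 (adjusted p = 0.475), and without both replicates 3 it was -0.01. RPA3 averaged 13.3 ± 3.48 FPKM in shENO1 cells and 14.3 ± 0.385 FPKM in wild-type cells (SD, n = 3 each; 95% interval of the log2 fold change -0.53 to 0.27). RPA3 overlaps UMAD1 on the opposite strand over 77897 bases of span, introns included. The strand setting of the counting is not given in the sources used here. Any reads from exon bases that these genes may share therefore cannot be told apart.

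FEN1, the nuclease that trims Okazaki fragments, had 48.5, 40.9 and 59.3 FPKM in shENO1 libraries and 33.0, 36.4 and 31.3 FPKM in wild-type libraries. The groups were apart, with a log2 fold change of 0.53 ± 0.15 (SE) and an adjusted p of 0.0590. It passed the threshold without shENO1 replicate 2 (adjusted p = 0.0423) and with limma-voom (adjusted p = 0.0213). FEN1 shares 4265 bases of its span with the gene model of FADS2 on the same strand, which leaves its reads uncertain. LIG1, the ligase that seals the fragments, averaged 25.5 ± 1.84 FPKM in shENO1 cells and 22.3 ± 0.722 FPKM in wild-type cells (SD, n = 3 each; adjusted p = 0.218).

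UNG, the glycosylase that takes uracil out of new DNA, had the largest log2 fold change of the 45. It had 24.7, 21.2 and 29.8 FPKM in shENO1 libraries, against 12.7, 13.1 and 11.7 FPKM in wild-type libraries. The lowest shENO1 value was well above the highest wild-type value, with a 2.01-fold ratio of means, a log2 fold change of 0.94 ± 0.13 (SE) and an adjusted p of 0.0102. The call was lost without wild-type replicate 1, at an adjusted p of 0.0541. UNG lies on chromosome 12 at 109097574-109110992 of GRCh38, plus strand.

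Ribonucleotide reductase makes deoxynucleotides from ribonucleotides, with RRM1 as its large subunit and RRM2 as the small subunit that limits it in S phase. RRM2, the higher of the pair, had 56.6, 66.0 and 55.8 FPKM in shENO1 libraries and 49.3, 51.7 and 64.8 FPKM in wild-type libraries, with overlap (log2 fold change 0.11, 95% interval -0.22 to 0.44). RRM1 had 51.1, 57.8 and 51.5 FPKM in shENO1 libraries and 37.1, 39.4 and 48.7 FPKM in wild-type libraries (log2 fold change 0.36 ± 0.13 SE, adjusted p = 0.110), and was called without wild-type replicate 3 (adjusted p = 0.0458). Both mRNAs were highest within their groups in shENO1 replicate 2 and wild-type replicate 3. RRM1 over RRM2 was 0.904, 0.877 and 0.922 in shENO1 libraries and 0.753, 0.762 and 0.751 in wild-type libraries, a narrow and non-overlapping pair of ranges. RRM2 shares 8681 bases with AC007240.1 on the same strand, a model of low level (1.48 to 3.16 FPKM in shENO1 libraries and 1.51 to 4.77 FPKM in wild-type libraries).

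By role, the median log2 fold change was 0.47 for the helicase activators, 0.46 for MCM2-7 and for polymerase alpha with primase, 0.36 for FEN1 with LIG1 and for ribonucleotide reductase with UNG, 0.31 for polymerases epsilon and delta, 0.17 for RPA, 0.15 for ORC, 0.11 for the clamp with its loader and -0.00 for the licensing factors. The difference between roles was not tested, since genes are not replicates of a condition. In each library, the median deviation of the 45 genes from their 6-library means of log2(FPKM + 1) was 0.12, 0.15 and 0.23 in shENO1 libraries and -0.15, -0.15 and -0.15 in wild-type libraries. For MCM2-7 it was 0.23, 0.15 and 0.36 in shENO1 libraries and -0.23, -0.22 and -0.27 in wild-type libraries. For RPA it was -0.10, -0.02 and 0.32 in shENO1 libraries and -0.12, 0.02 and -0.08 in wild-type libraries, so that shENO1 replicate 3 alone stood out there. The share of mitochondrial reads moved with the groups. Its part in these results was not tested beyond the scaling to the summed FPKM of nuclear-encoded genes. In bulk RNA a larger share of cells in S phase and more of these mRNAs per cell cannot be told apart.

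**Figure D4:**
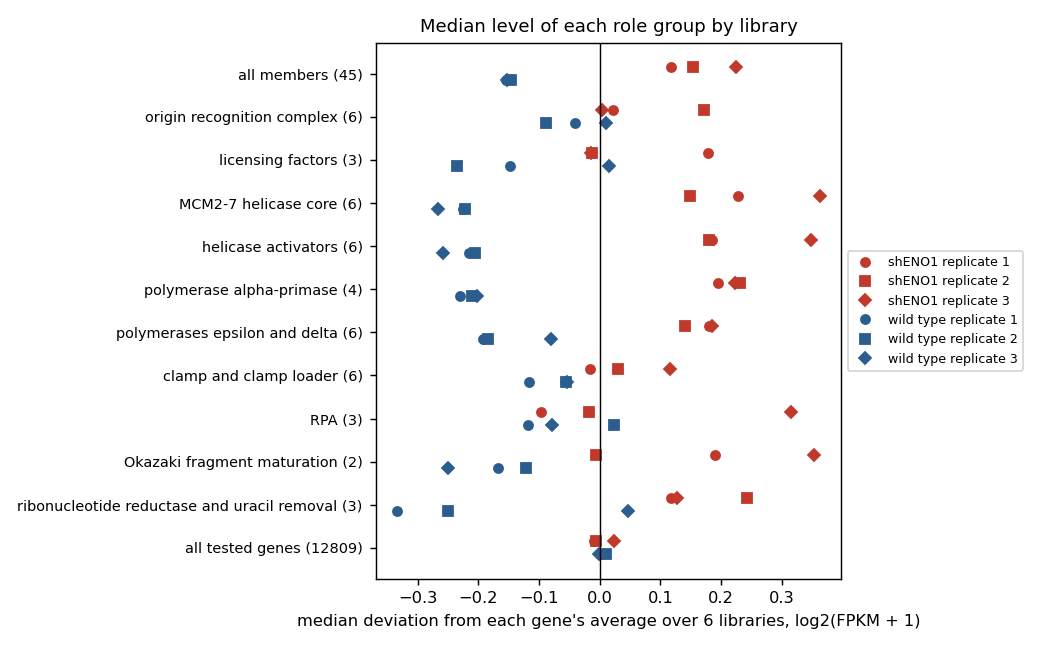
Median over the genes of each role group of the deviation from their 6-library means of log2(FPKM + 1), with a red (shENO1) or blue (wild type) marker per library and the number of genes in brackets. MCM2-7 lies between 0.15 and 0.36 in the shENO1 libraries and between -0.27 and -0.22 in the wild-type libraries, whereas RPA is above 0.1 only in shENO1 replicate 3.

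The rest of the pathway was read from a list of replication genes outside the 45. Of 39 listed (origin firing kinases, fork protection, chromatin assembly, topoisomerases and others), 37 were tested and 6 rose while 1 fell (16.2% higher, beside 7.86% higher and 6.46% lower over all tested genes), with a median log2 fold change of 0.19. RNASEH2A and MCM9 were under 1 FPKM in every library. CHAF1B, a subunit of the histone chaperone CAF-1, rose most, with 13, 12.1 and 14.4 FPKM in shENO1 libraries and 8.06, 7.50 and 7.39 FPKM in wild-type libraries (log2 fold change 0.71 ± 0.09 SE, adjusted p = 0.00875), and was called with any 1 library left out. The others were TIPIN (0.64, adjusted p = 0.0311) and TIMELESS (0.41, adjusted p = 0.0456), which form the fork protection complex, the histone chaperone ASF1A (0.61, adjusted p = 0.0188), SUPT16H of the FACT chaperone (0.52, adjusted p = 0.0190) and DSCC1 of the alternative clamp loader that serves cohesion (0.56, adjusted p = 0.0172). The calls of TIPIN and TIMELESS were lost without any 1 library (adjusted p up to 0.0853 and 0.124). Those of ASF1A, SUPT16H and DSCC1 were lost without wild-type replicate 1 (adjusted p of 0.0777, 0.0912 and 0.0747), SUPT16H and DSCC1 also without wild-type replicate 2 (0.0737 and 0.0833), ASF1A and SUPT16H also without shENO1 replicate 1, and ASF1A also without shENO1 replicate 2.

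TOP2A, the topoisomerase that unlinks sister chromatids and peaks late in the cycle, fell. It had 113, 135 and 124 FPKM in shENO1 libraries, against 168, 177 and 189 FPKM in wild-type libraries (log2 fold change -0.52 ± 0.12 SE, adjusted p = 0.0314). The call was kept without shENO1 replicate 2 or 3 and lost without any of the other 4 libraries (adjusted p up to 0.127). It was also lost under quantile normalisation or scaling to the summed FPKM of nuclear-encoded genes. Among genes of deoxynucleotide supply TYMS, TK1 and DUT did not pass the test, with log2 fold changes of 0.01, 0.26 and 0.26.

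A number of replication genes share their promoter region with a gene transcribed the other way. Such a protein-coding neighbour, with its start within 1000 bases on the opposite strand, was found for 17 of the 45 genes, at distances of 2 to 932 bases. Starts were those of the deposited gene models, and 13 neighbours were expressed enough to test. Of these 0 rose by limma and 1 fell, with a median log2 fold change of -0.15. With 7.86% of all tested genes higher and 6.46% lower, these counts are near the background. At an unadjusted p under 0.05 the counts were 2 higher and 2 lower (16.3 and 15.4% of all tested genes), and with limma-voom 2 higher and 1 lower (10.9 and 7.25%). CDC45 rose, while UFD1, whose start lies 244 bases away and which encodes a partner of the VCP segregase, fell. UFD1 had 8.06, 8.18 and 8.46 FPKM in shENO1 libraries, against 13.7, 14.3 and 12.1 FPKM in wild-type libraries (log2 fold change -0.63 ± 0.09 SE, adjusted p = 0.0107). Its call was lost without wild-type replicate 1 or 2, with an adjusted p of up to 0.0588.

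The neighbours of other genes that rose were TPRA1 at MCM2, with a log2 fold change of -0.35 (adjusted p = 0.161), CDS2 at PCNA (-0.23, adjusted p = 0.0992), SMYD4 at RPA1 (-0.10) and HSD17B6 at PRIM1 (0.10). The neighbour of GINS3, PRSS54, was near 0. PRSS54 lies at the start of the deposited GINS3 model, 97391 bases from the RefSeq start, and does not share the GINS3 promoter shown. The largest positive values among neighbours belonged to PRKDC, the DNA-dependent protein kinase, and VPS35. PRKDC, which starts 2 bases from MCM4, had 75.3, 81.7 and 60.2 FPKM in shENO1 libraries and 41.2, 40.7 and 56.9 FPKM in wild-type libraries, with replicates 3 closest (log2 fold change 0.64 ± 0.18 SE, adjusted p = 0.0566). It was called without shENO1 replicate 3 and without wild-type replicate 3 (adjusted p down to 0.0320). VPS35, 125 bases from ORC6, averaged 23.7 ± 1.13 FPKM in shENO1 cells and 16.1 ± 3.36 FPKM in wild-type cells (SD, n = 3 each; adjusted p = 0.0519), and was called without wild-type replicate 3 (adjusted p = 0.0168). The log2 fold changes of the remaining tested neighbours lay between -0.24 and 0.21: PRPF38A, RARS2, AP4M1, PXMP2, TMEM258 and ZSWIM9. MBD5, C9orf43 and LIPT2 were under the filter.

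**Figure D5:**
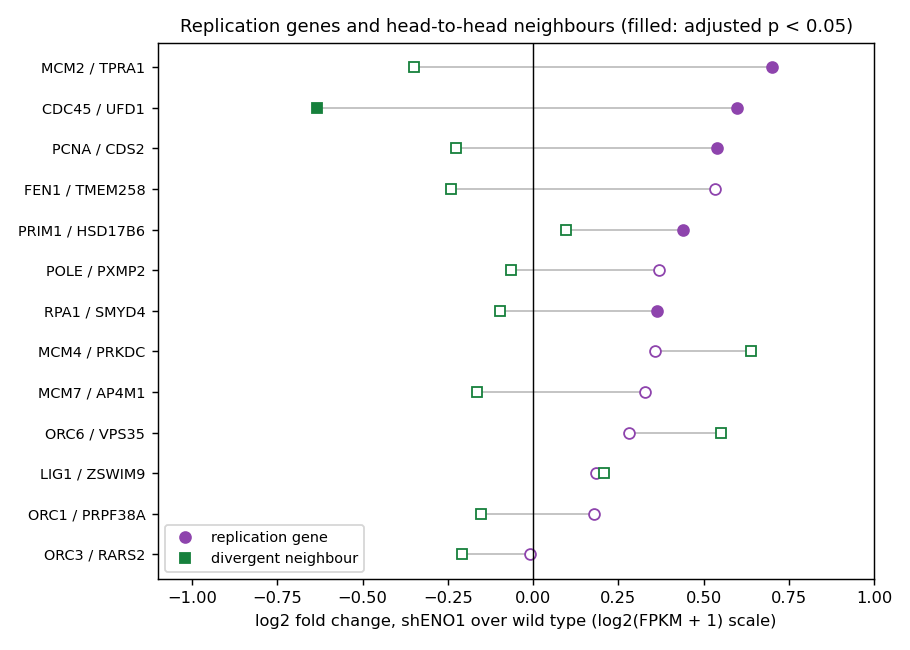
Log2 fold change, shENO1 over wild type, of 13 replication genes and of the divergent protein-coding neighbour of each (filled markers: adjusted p under 0.05). CDC45 and UFD1 lie on opposite sides of 0, and no neighbour that was tested passed the threshold upwards.

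The genes whose levels over the 6 libraries ran closest to the mean log2(FPKM + 1) of the 15 that rose were ST6GAL1 (Pearson r = 0.999), C3AR1 (0.998), IRF8 (0.998), NOLC1 (0.998) and UBASH3B (0.997). These r values span 6 libraries in 2 groups that differ in all of these genes, and are given as a description. IRF8, a myeloid transcription factor, averaged 45.6 ± 3.25 FPKM in shENO1 cells and 25.1 ± 1.07 FPKM in wild-type cells, and NOLC1, a nucleolar protein, 66.7 ± 5.61 FPKM in shENO1 cells and 34.7 ± 1.83 FPKM in wild-type cells (SD, n = 3 each).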

How the data were processed

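The authors deposited 1 table of FPKM values for 58735 genes and 6 libraries; STAR, Cufflinks and Cuffnorm and the build hg38 (GRCh38) are named, per the submitters' processing notes, with versions, strand setting and multiply matching reads not given in the sources used here. Total RNA went into TruSeq libraries, according to the labels. Multiplying FPKM by gene length gave whole multiples of a fixed unit in each library, and so the reads per gene.

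The test was limma 3.58.1 under R 4.3.3 on log2(FPKM + 1) for the 12809 genes averaging 1 FPKM or more (group as the only term, empirical Bayes with a mean-variance trend, Benjamini-Hochberg adjustment over all tested genes, threshold 0.05). Fold changes are on that scale and understate the change of low genes. The script was tested on simulated data. Alternatives were limma-voom on the recovered reads, other pseudocounts, filters and scalings, a replicate block and leaving out libraries. Replicates were counted separately, since their reads differed by 3.98 to 41.5 times the counting noise (chi-square per degree of freedom).

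The 45 members, the other gene lists and the roles were chosen with earlier results of these data known. Values per library are given for members past the threshold and the highest member of each role, and up to 8 called genes of the pathway lists are named. Divergent neighbours, the 5 genes most alike in pattern and up to 4 promoters of called members with a match were also taken by rule. Other members were named freely, after their values were seen. Promoter sequences are from RefSeq. Coordinates count from 1. Some results of the marker and deoxynucleotide supply lists are not reported here.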

Additional observations from a re-analysis of the deposited data

How the results depend on the processing

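The 45 genes gave 15 higher and 0 lower calls; the range with 1 library left out was 1 to 12 higher and 0 to 1 lower, and GMNN was the 1 lower call with limma-voom and without both replicates 3. With no filter on low values 8 were higher, and without both replicates 3, 17. Over all tested genes (1007 higher, 828 lower) the counts were 445 and 381 with no filter, 1649 and 2033 without both replicates 3, and 147 to 914 and 134 to 775 with 1 library left out. Scaling to the summed FPKM of nuclear-encoded genes (nuclear scaling) gave 501 lower and moved the median of all tested genes to 0.08. It made 73.6% of all calls higher, against 54.9% in the fit as reported. For the lists of other replication genes and deoxynucleotide supply together (7 higher, 1 lower), limma-voom gave 13 higher, no filter 3 and 0 lower, nuclear scaling 14 and 0 lower, quantile normalisation 0 lower, the fit without both replicates 3 12 and 2, and leaving out 1 library 1 to 6 higher and 0 to 1 lower. Deviations of same-numbered libraries correlated at -0.08, -0.33 and -0.46, and no library correlated best with its own number. With 3 libraries per group, whose deviations sum to 0, this cannot show whether same-numbered libraries were handled together. With the replicate block 0 members were higher and 0 lower, 0 genes in all were higher and 1 lower, and of the other replication and supply genes 0 were higher and 0 lower.

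Medians by role moved by more than the replicate spread as follows. With nuclear scaling the median was 0.25 for ORC, 0.57 for MCM2-7, 0.57 for the helicase activators, 0.56 for polymerase alpha-primase, 0.42 for polymerases epsilon and delta and 0.22 for the clamp and clamp loader. With a pseudocount of 5 it was 0.24 for the activators, 0.29 for alpha-primase and 0.26 for epsilon and delta. Quantile normalisation gave 0.58 for MCM2-7, and limma-voom 0.54 for the activators and 0.55 for alpha-primase. Alpha-primase was further 0.42 with equal totals, 0.47 with a mean of at least 5 FPKM, 0.53 with a pseudocount of 0.1, 0.43 without both replicates 3 and 0.44 to 0.47 with 1 library left out. Licensing factors were at 0.20 without wild-type replicate 3 (the top of their leave-one-out range, from -0.12) and 0.31 without both replicates 3, epsilon and delta then at 0.36 (0.28 to 0.36 with 1 library left out) and RPA at -0.014.

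Log2 fold changes near 0 that changed sign, none of them called, were those of ORC3 (limma-voom 0.00063, nuclear scaling 0.095, without both replicates 3 0.064, 1 library left out -0.096 to 0.042), CDT1 (limma-voom 0.010, nuclear scaling 0.11, quantile normalisation 0.075, without both replicates 3 0.31, 1 library left out -0.12 to 0.20), POLA2 (nuclear scaling 0.073, quantile normalisation 0.0069, without both replicates 3 0.068, 1 library left out -0.075 to 0.047), RFC1 (equal totals -0.033, 1 library left out -0.041 to 0.051), RFC5 (-0.056 without both replicates 3, 1 library left out -0.029 to 0.16) and RPA2 (-0.014 without both replicates 3). Of 997 single-gene values under alternatives, 795 kept direction and side of the threshold, 136 lost the call and 39 gained it. The causes were not tested. The number of libraries limits the precision to the 95% intervals given.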
